A study of Bos taurus with 2 samples.

Results

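Sertoli cells are the somatic cells of the seminiferous epithelium. They hold and feed the germ cells, close the adluminal part of the tubule with tight junctions that form the blood-testis barrier, and send hormonal and paracrine signals to the pituitary gland and to the Leydig and peritubular cells. Their identity is set during sex determination by a set of transcription factors, and their secreted products are widely used as markers of their number and maturity. A set of 10 genes known from Sertoli cells was examined here, namely the transcription factors SOX9, WT1 and GATA4, the hormone genes AMH, INHA and INHBB, the paracrine ligand DHH, the tight junction gene CLDN11, and CLU and TF, which code for the secreted proteins clusterin and transferrin. The members were all non-control probes that the array design names after these genes. Of the 10 genes, 9 had a probe, with 22 of the 51279 probes between them, and 8 were measured on both arrays.

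Total RNA from whole testis was compared between crossbred bulls, which were Holstein Friesian crosses with 50 to 75% exotic inheritance, and Zebu bulls of the Tharparkar breed. Each group was a pool of RNA from 3 bulls aged 24 months, taken from the right testis after removal of that testis alone. Each pool was labelled with Cy3, a green dye, and hybridised to 1 Agilent bovine array, and both arrays lay on 1 slide and were scanned together. There was thus 1 array per group, so that no difference has a replicate check, no p-value is given and the spread between bulls is unknown. The precision is limited by having 2 arrays in all.

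Of the spots that were not controls, 72.0% stood well above background in the crossbred pool and 74.3% in the Zebu pool, which is the mark the scanner software sets on a spot that stands clear of its local background, and no spot was saturated. Levels are given as the processed signal of a spot and as the log2 of that signal minus the 75th percentile of its array. Every difference is the crossbred level minus the Zebu level on that log2 scale, and levels of different probes were not set against each other. A gene was read from its brightest probe, with its other probes beside it. A gene or probe was called at a difference of 1.5 or more in size, which is 2.83-fold. Between spots that carry the same probe the difference had an SD of 0.33 (5960 probes), which covers spotting and scanning only and served as the tolerance for a value. Every probe of the 9 genes had a single spot. None of these spots lay in the dark patch of the crossbred array (544 spots, median difference -1.01) or in the bright patch (105 spots, median difference 1.104).

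The probes are 60 bases long. Those of DHH and INHA shown here are the 2 that passed the threshold, those of AMH, CLU and TF are further probes that are set against the brightest probe of the same gene, and that of INHBB was not well above background. Each is written 5′ to 3′ in lower case as the array file gives it.
DHH: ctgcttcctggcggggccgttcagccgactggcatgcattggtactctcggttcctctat
AMH: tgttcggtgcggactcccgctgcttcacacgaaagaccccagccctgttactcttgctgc
INHA: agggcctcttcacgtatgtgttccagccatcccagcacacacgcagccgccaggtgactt
CLU: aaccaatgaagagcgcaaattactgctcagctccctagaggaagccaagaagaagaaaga
TF: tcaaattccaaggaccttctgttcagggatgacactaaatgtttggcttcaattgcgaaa
INHBB: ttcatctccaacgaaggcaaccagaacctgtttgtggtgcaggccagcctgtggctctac
On the assembly the array was mapped to, HGSC Btau_3.1, the DHH probe lies at chr5:33770837-33770896 on the plus strand, the AMH probe at chr7:20129746-20129805 on the plus strand, the INHA probe at chr2:111905749-111905808 on the plus strand and the CLU probe at chr8:11303229-11303288 on the minus strand. The TF probes lie on an unplaced scaffold. Whether each probe is exonic coding sequence or untranslated sequence was not read from an annotation, since none of that assembly was used here.

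Of the 8 genes measured on both arrays, 7 were lower in the crossbred pool by more than the tolerance, against 33.9% of all gene names tested, and the remaining gene, TF, lay within it. The median difference of the 8 genes was -0.99, whereas over the 22842 gene names measured on both arrays it was -0.04, with quartiles of -0.49 and 0.45. DHH alone was past the threshold, and none was higher by it, against 2.05% of all gene names called lower and 6.61% called higher. At a lower threshold of 1, which is 2-fold, 4 genes were lower (DHH, AMH, GATA4 and INHA), against 7.54% of all gene names. In bulk tissue, fewer Sertoli cells, less RNA of these genes per cell and more RNA from other cells cannot be told apart. At the level of probes, 13 of the 19 measured probes were lower by more than the tolerance and 1 was higher, against 34.4% and 28.7% of all probes. Lower by 1 or more were 6 of them, against 7.39% of all probes, and higher by 1.5 or more none, against 5.61%. At 1.5-fold, 5 genes and 10 probes were lower, against 20.7% of all gene names and 20.9% of all probes, and no gene but 1 probe was higher, against 21.0% and 19.6%. Several probes were measured for 6 genes, and in 5 of them all probes lay on the same side of 0.

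**Figure D1:**
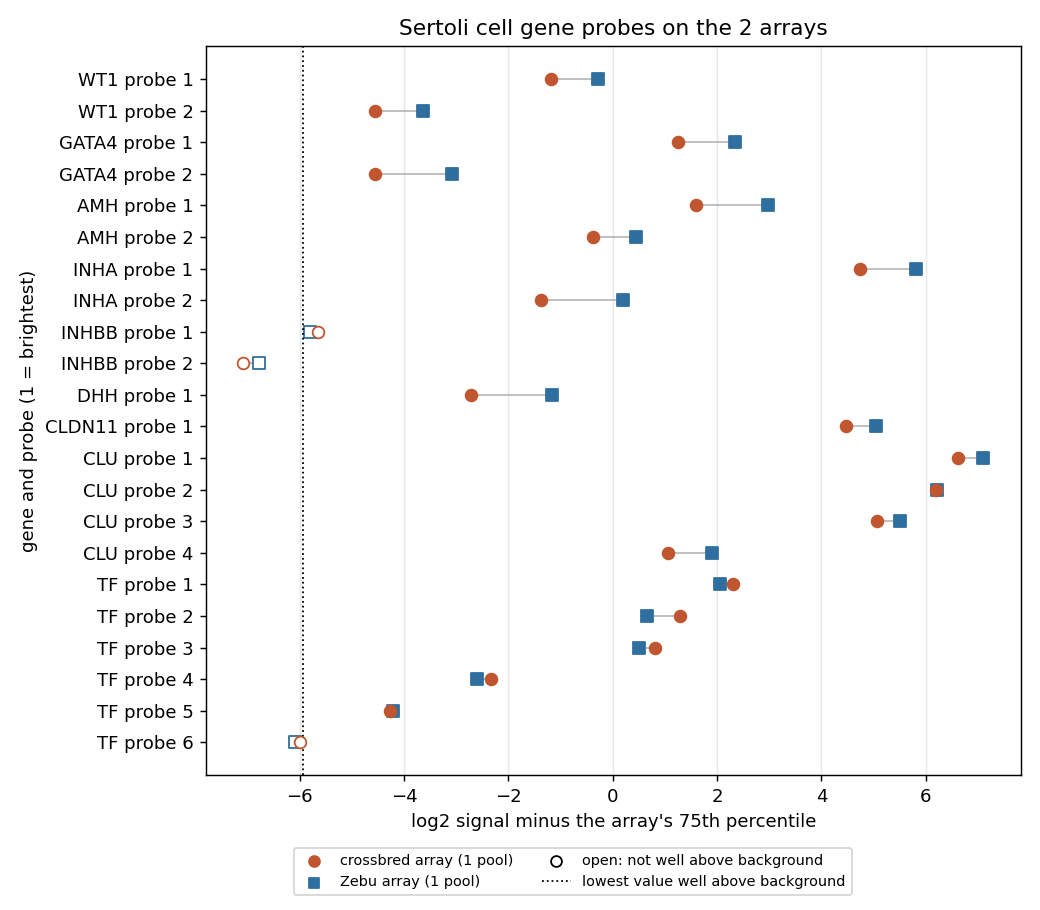
Normalised level of each Sertoli cell gene probe in the crossbred pool (circles) and in the Zebu pool (squares), as log2 signal minus the 75th percentile of the array, with 1 pool of 3 bulls per array. Open symbols were not well above background, and the dotted line is the lowest value of a probe well above background (Zebu array). The crossbred circle lies left of the Zebu square for every measured probe of WT1, GATA4, AMH, INHA, DHH, CLDN11 and CLU, and right of it for 4 of the 5 measured TF probes.

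AMH codes for anti-Müllerian hormone, which makes the Müllerian ducts of the male fetus regress and is a classical product of immature Sertoli cells. Its brightest probe (chr7:20130791-20130850) read 3546 in the crossbred pool and 9747 in the Zebu pool. The crossbred level was thus 38.1% of the Zebu level, a difference of -1.39, and 2.33% of all gene names measured on both arrays were as low or lower. The second AMH probe, shown above and nearer the 5′ end of the transcript, read 907 and 1679.8, a difference of -0.82. Both probes were lower in the crossbred pool by more than the tolerance, and both fell short of the threshold of 1.5. The near spots of the brighter probe had a median difference of 0.48, opposite in sign to that of AMH.

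Inhibin is a dimer of an alpha subunit, coded by INHA, and a beta subunit, coded by INHBA or INHBB, and it restrains the release of follicle-stimulating hormone from the pituitary gland. INHA was read at 31201 in the crossbred pool and 69043 in the Zebu pool by its brightest probe (chr2:111906487-111906546). The difference was -1.08, so that the crossbred level was 47.4% of the Zebu level. The second INHA probe, shown above, read 451 and 1419, a difference of -1.58 or 33.3% of the Zebu level, and it was 1 of the 2 Sertoli cell gene probes past the threshold (1.89% of all probes were called lower). Both probes of INHA were therefore lower by more than the tolerance, with 1 on either side of the threshold. INHBB was not measurable, since its probes read 23.4 and 22.3 for the one shown and 8.68 and 11.2 for the other on the crossbred and Zebu arrays. None of these values was well above background, so no fold is given.

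Of the 10 other genes of the inhibin and activin pathway, 9 were measured on both arrays and ACVR1B was not well above background on either. Among the 9 genes, 6 were lower by more than the tolerance and 1 was higher, against 33.9% and 30.0% of all gene names. The median difference was -0.47. INHBA, the partner subunit of INHA, differed by -0.27 with its brightest probe and by -0.95 with its other one. TGFBR3, which codes for betaglycan, the co-receptor of inhibin, differed by -0.48, but its 3 other measured probes ran from -0.19 to 0.96. The lowest value of the pathway was that of the activin receptor gene ACVR2A, at -1.33, whose 2 other measured probes differed by -0.61 and -0.30. The one call was SMAD3, an intracellular mediator of activin, against 6.61% of all gene names called higher. SMAD3 was higher in the crossbred pool by 1.80 (560 against 169), while its other probe differed by 0.08. This call was lost with normexp background correction and with the mean over all probes.

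For AMH itself, the type II receptor gene AMHR2 was lower with both of its probes, at -1.17 and -1.06. In the whole AMH signalling list of 6 genes, 4 were lower by more than the tolerance and 1 was higher, against 33.9% and 30.0% of all gene names. The median was -0.49 and none was past the threshold. ACVR1, a type I receptor gene, was higher by 0.75 and by 1.14 with its other probe. The value of SMAD9 was -1.14, from a spot inside the dark patch, and the part of the patch in that value was not tested.

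DHH codes for desert hedgehog, the ligand by which Sertoli cells act on Leydig and peritubular cells through the receptor patched. Its single probe, shown above, read 180 in the crossbred pool and 547 in the Zebu pool. The difference was -1.53, which is 2.90-fold lower in the crossbred pool and 34.5% of the Zebu level. Of all gene names measured on both arrays, 1.55% were as low or lower. The value lies just past the threshold, by much less than the tolerance. Normexp background correction models the local background instead of using the processed signal, and adds an offset of 50. With it, the value was -1.22 and no longer past the threshold. The near spots had a median difference of 0.06.

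Among the 12 other genes of desert hedgehog signalling with a probe, 7 were lower by more than the tolerance and 2 were higher. Of all gene names, 33.9% were lower and 30.0% higher by that much. The median of the list was -0.84. With the mean over all probes of a gene the median was -0.41, and with normexp background correction -0.36. SMO, which carries the signal into the receiving cell, was the one call, against 2.05% of all gene names called lower. It differed by -1.57 (60.8 against 190). The call was lost with normexp background correction, with the mean over all probes and with the median of the near spots taken off. The receptor gene PTCH1 differed by -1.04, at signals of 26.8 and 57.7. GLI1, a transcription factor gene that is itself a target of the pathway, differed by -0.98 with its brightest probe and by 0.05 with its other one. At the other end lay the co-receptor gene CDON (121 against 57.0) and the transcription factor gene GLI2 (79.3 against 38.2). They were higher by 1.15 and 1.12. The list was thus split, with SMO and PTCH1 lower and CDON and GLI2 higher, although the other probe of GLI2 differed by 0.19. SMO, PTCH1, CDON and GLI2 were dim, and no other probe of SMO, PTCH1 or CDON was well above background on both arrays.

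**Figure D2:**
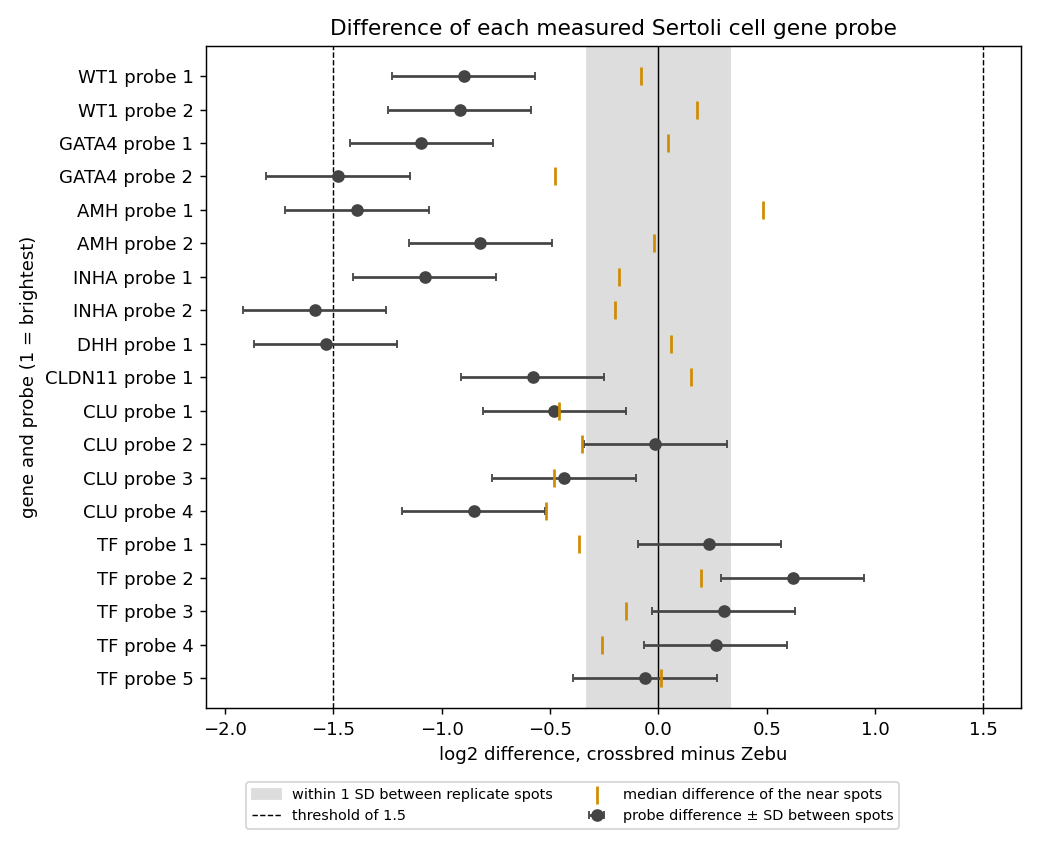
Log2 difference, crossbred minus Zebu, of each of the 19 measured Sertoli cell gene probes (points), with the SD between spots of 1 probe, 0.33, as error bars and as the grey band around 0. Dashed lines mark the threshold of 1.5 and orange ticks the median difference of the near spots. The probe of DHH and the second probe of INHA lie past the threshold, and TF alone has probes above 0.

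WT1 and GATA4 are zinc finger transcription factors that act in the forming gonad and remain on in Sertoli cells, and GATA4 is also known from Leydig cells. WT1 read 517 in the crossbred pool and 1009.8 in the Zebu pool (chr15:62693183-62693242), a difference of -0.90. Its second probe, which lies at chr15:62729757-62729816, read 50.05 and 99.01, a difference of -0.92. Although their signals were far apart, both WT1 probes placed the crossbred level near the same share of the Zebu level, at 53.7% and 53.0%. GATA4 read 2781 and 6222 with its brightest probe (chr8:7521543-7521602), a difference of -1.09 and 46.9% of the Zebu level. The second GATA4 probe (chr8:7522801-7522860) was dim, at 49.7 and 145, and differed by -1.48, just short of the threshold. All 4 probes of the pair of transcription factors were lower in the crossbred pool by more than the tolerance.

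SOX9, which starts Sertoli cell differentiation, has no probe of that name among the array's genes. A probe named by accession and described on the array as SOX9-like carries a gene number that the ARS-UCD2.0 gene table lists as SOX9. On its 2 spots it read 53340 and 58764 in the crossbred pool and 41856 and 42693 in the Zebu pool. The differences were 0.42 and 0.53, both higher in the crossbred pool by more than the tolerance and opposite in direction to WT1 and GATA4. Another probe described as SOX9-like, whose gene number that table does not list, read 2366 and 1974 in the crossbred pool and 2968 and 1513 in the Zebu pool. Its 2 spots differed by -0.26 and 0.45, on either side of 0. Since the names do not match, neither probe was counted among the Sertoli cell genes.

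CLDN11 codes for claudin 11, the main tight junction strand protein of the blood-testis barrier. It read 25902 in the crossbred pool and 40583 in the Zebu pool with its single probe (chr1:99252439-99252498). The difference was -0.58, or 66.9% of the Zebu level, and 20.6% of all gene names were as low or lower. CLDN11 was thus lower by more than the tolerance but stood well inside the spread of the array.

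CLU codes for clusterin, a secreted chaperone that is abundant in Sertoli cell fluid and is also made by many other cells. Its brightest probe read 116048 in the crossbred pool and 169562 in the Zebu pool, a difference of -0.48. As low or lower were 25.5% of all gene names measured on both arrays. The second probe read 86274 and 91292, a difference of -0.01, the third 39496 and 55989.9, a difference of -0.44, and the fourth, shown above, 2441 and 4618, a difference of -0.85. All 4 probes lay below 0, but they spread over more than the tolerance. The first and second probes overlap by 26 bases and differ there by 1 base, G44A, counted from the 5′ end of the first probe and printed here in capitals:
first CLU probe: tcacgggaaGaacttgctcgcatgcc
second CLU probe: tcacgggaaAaacttgctcgcatgcc
The near spots of the 4 probes had median differences of -0.52 to -0.35, of the same sign as the differences of CLU. They were -0.46 for the first probe and -0.48 for the third, near the differences of these probes, whereas the second probe lay above its near spots and the fourth below. With the median of the near spots taken off each spot, a setting chosen after the data were seen, the difference of CLU was -0.06, within the tolerance.

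TF codes for transferrin, the iron carrier that Sertoli cells pass to the germ cells across the barrier and that the liver makes for the blood. It read 5791 in the crossbred pool and 5158 in the Zebu pool, a difference of 0.24, within the tolerance, and 34.3% of all gene names were as high or higher. The second TF probe, which shares 33 identical bases with the first, read 2858 and 1949, a difference of 0.62, and was the only Sertoli cell gene probe that was higher by more than the tolerance. The third, shown above, read 2055 and 1748, a difference of 0.30, the fourth differed by 0.26 and the fifth by -0.06. The sixth, at 18.4 and 18.1, was not well above background on either array. TF thus stood apart from the other measured genes, with 4 of its 5 measured probes above 0.

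The genes that take up and store iron likewise lay close to 0, with a median of 0.00 over 9 genes. By more than the tolerance, 2 of them were lower and 1 higher, against 33.9% and 30.0% of all gene names. The transferrin receptor gene TFRC differed by -0.17. The lowest value was that of IREB2, which codes for an iron-responsive regulator, at -0.36, and the highest that of the iron transporter gene SLC11A2, at 0.53, whose 5 other measured probes ran from -1.42 to 0.86.

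**Figure D3:**
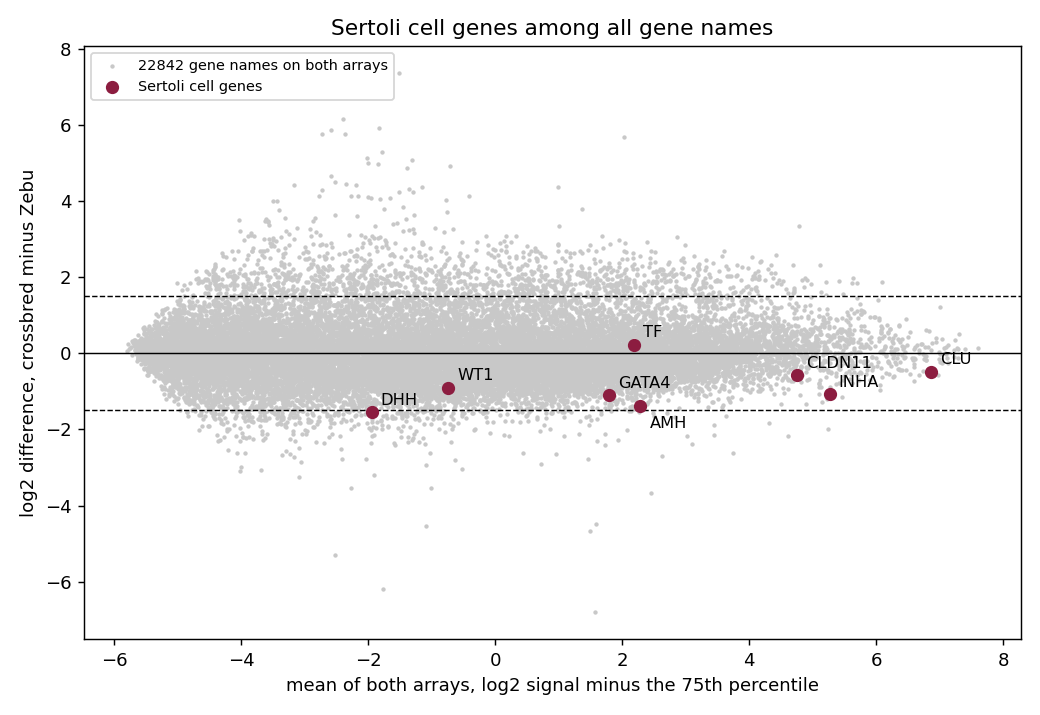
Log2 difference, crossbred minus Zebu, against the mean normalised log2 level of both arrays for the 22842 gene names well above background on both arrays (grey) and the 8 measured Sertoli cell genes (dark red). Dashed lines mark the threshold of 1.5. The 7 lower genes lie below 0 at low and high signal alike, with DHH at the lower line and TF above 0.

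A further list of 24 genes known from Sertoli cells had 23 genes on the array, of which 19 were measured on both arrays. The remaining 4 did not stand clear of the background in either pool. Among the 19 genes, 13 were lower by more than the tolerance and 3 were higher, against 33.9% and 30.0% of all gene names. None was past the threshold, against 2.05% lower and 6.61% higher, and the median was -0.42. The receptor gene for follicle-stimulating hormone, FSHR, read 519 in the crossbred pool and 743 in the Zebu pool, which is a difference of -0.45 and, for the other probe, of -0.54. The lowest value was that of ETV5, a transcription factor gene, at -1.08 (843 against 1869) and -0.73 with the other probe. The highest was CLDN5, which codes for a claudin that is also known from endothelial cells. It read 5468 in the crossbred pool and 2286 in the Zebu pool, a difference of 1.33, and its 2 other measured probes differed by 0.98 and 1.54. The claudin genes CLDN11 and CLDN5 therefore differed in opposite directions. Other tight junction genes of this list were split too. OCLN was higher by 1.02 and, with its other measured probe, by 1.49. TJP1 differed by -0.51, and its 3 other measured probes ran from -1.45 to -0.19.

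Markers of the other testicular cell types also differed between the pools. Over all gene names, 33.9% were lower and 30.0% higher by more than the tolerance, and 2.05% and 6.61% were past the threshold. All 8 spermatid markers were higher in the crossbred pool by more than the tolerance and 6 of them were past the threshold, with a median of 1.67. The calls were ODF1 at 2.13, PRM2 at 1.88, TNP2 at 1.74, AKAP4 at 1.71, ACRV1 at 1.64 and SPACA4 at 1.56. Summed over the list, in units of the 75th percentile, the spermatid markers stood at 527 in the crossbred pool and 273 in the Zebu pool. Such a sum is carried by the brightest probes of its list and is set only against the same sum in the other pool. Of the spermatocyte markers, SYCP1 and SYCP2 had no probe, and 2 of the 4 measured were higher by more than the tolerance (median 0.52, summed level 12.02 and 9.72), with DMC1 the highest at 1.04. Of the 6 spermatogonial markers, 5 were lower and 1 was higher (median -0.80, summed level 31.2 and 41.7), with SALL4 past the threshold at -1.65. The highest was DDX4, which is also known from later germ cells, at 0.77.

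Among the somatic markers, 5 of 6 Leydig cell markers were lower by more than the tolerance (median -0.79, summed level 87.8 and 133), against 33.9% of all gene names. CYP17A1 and HSD3B1, which code for enzymes of androgen synthesis, were past the threshold at -1.68 and -1.77. All 5 peritubular and smooth muscle markers were lower (median -0.77, summed level 29.3 and 51.6), with DES the lowest at -1.02. Of the 5 endothelial markers 1 was lower by more than the tolerance, KDR at -0.38, and CDH5 was the highest at 0.28 (median 0.08, summed level 0.951 and 0.974). The other measured probe of CDH5 differed by -0.05. Of the 4 macrophage markers with a probe, MRC1 having none, 1 was higher by more than the tolerance, CD14 at 0.56, and CSF1R was the lowest at -0.19 (summed level 9.36 and 7.11). The 2 other measured probes of CD14 lay on either side of 0, at -0.25 and 0.86. CD163 stood clear of the background in the Zebu pool alone and has no fold, and the median was 0.20 over the 3 measured on both arrays and 0.10 with CD163 entered as 0. The part of these cell types in the differences of the Sertoli cell genes was not tested.

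**Figure D4:**
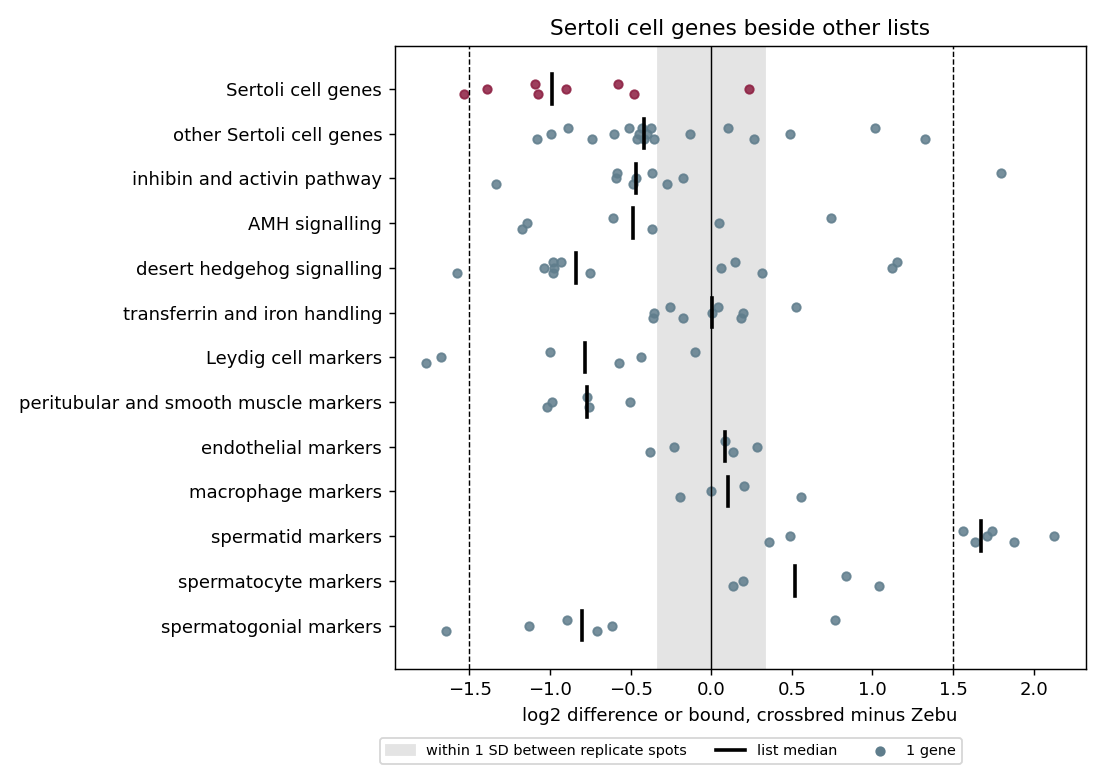
Log2 difference, crossbred minus Zebu, of each gene of the Sertoli cell set (dark red) and of 12 further lists (grey-blue), with the median of each list as a black bar. CD163 of the macrophage list, which has no fold, is drawn at 0, the grey band is the tolerance of 0.33 and dashed lines mark 1.5. The median of the Sertoli cell genes lies at -0.99 and that of the other Sertoli cell genes at -0.42. Further medians are -0.84 for desert hedgehog signalling, -0.80 for the spermatogonial, -0.79 for the Leydig cell and -0.77 for the peritubular markers. The spermatid markers have a median of 1.67.

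Direction was kept by each of the 8 genes under 10 other ways of processing, and the median of the set ran from -1.02 to -0.89. Several of these settings had little or no room to change a direction. Other centring, the authors' log2 values and leaving out the patches moved all 8 genes by the same small amount. The filter settings left the value of each gene unchanged. The differences ran from -0.92 to -0.85 for WT1, from -1.29 to -1.08 for GATA4, from -1.33 to -0.93 for INHA, from -0.77 to -0.58 for CLDN11 and from 0.17 to 0.56 for TF. AMH ran from -1.91 to -1.11, DHH from -1.63 to -1.22 and CLU from -0.52 to -0.06. With the near spots taken off, 6 genes were lower by more than the tolerance, in place of 7.

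**Figure D5:**
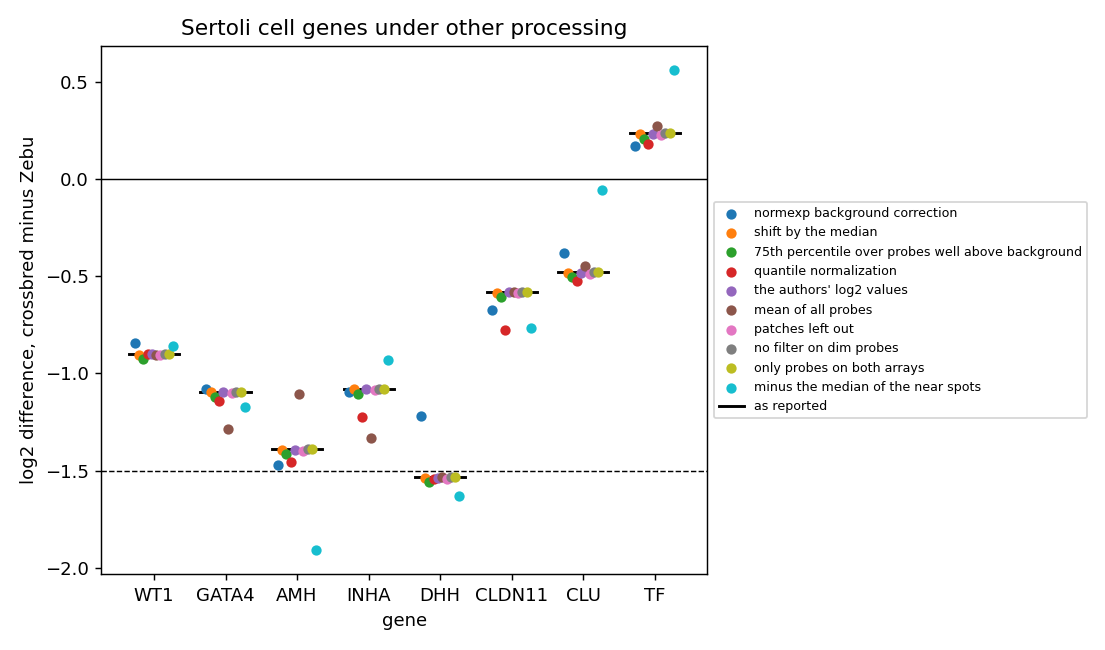
Log2 difference, crossbred minus Zebu, of each measured Sertoli cell gene as reported (black bar) and under 10 other settings (coloured points), with the threshold of 1.5 as a dashed line. DHH crosses the threshold upwards under normexp background correction, and AMH crosses it downwards, to -1.91, where the median of the near spots was taken off.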

How the data were processed

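The authors pooled RNA by group, hybridised each pool to 1 array and read it with Agilent Feature Extraction 11.5.1.1. The authors deposited the processed signal, an intensity. Per the file headers, the software took off the background, removed trends within the array and put a positive surrogate at the noise floor. No normalisation between arrays was made at that step. The authors also deposited log2 values, the log2 signal minus the 75th percentile of the array. Spots were flagged by the software as well above background, saturated or outliers.

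Control spots and 13 outlier spots were left out. Log2 processed signals were averaged per probe, and each array was centred on its 75th percentile (1176 crossbred, 1233 Zebu). The probe with the highest mean level stood for its gene. A gene counted where either array showed it well above background, and a dim side entered at the higher of its own value and the lowest value well above background. Near spots are the 18 spots around a spot, of which at least 6 needed a value. A pattern across samples could not be compared between genes, since 2 arrays give 1 difference per gene.

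The genes named are the 10 members, every gene of the other lists past 1.5 and, in each list, the gene with the largest rise and the gene with the largest fall where it had one, and the direct receptors or partners AMHR2, PTCH1, TFRC, INHBA, TGFBR3 and FSHR. GLI1, GLI2, SMAD9, OCLN and TJP1 were added after their values were seen. Some genes of the lists are not reported here by name. Members and lists were chosen with earlier results of these data known.

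Steps were tested on simulated data. Python 3.11.15, numpy 2.4.6, pandas 2.3.3, R 4.3.3 and limma 3.58.1 were used. The alternatives were normexp (offset 50), centring on the median, a percentile taken only over probes well above background, quantile normalisation, the authors' log2 values, the mean of all probes, patches left out, no filter on dim probes, only probes on both arrays, near spots taken off, and thresholds of 1 and of 1.5-fold.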

Additional observations from a re-analysis of the deposited data

How the results depend on the processing

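No paired analysis was possible because each group had 1 array. Of 316 recomputed values, 285 stayed close to those reported, 31 moved and none of the 8 genes changed direction. The settings are not independent checks, since several shift all genes nearly alike or leave their values as they were. The median of the iron genes, 0.00 as reported, ran from -0.17 to 0.01. No scaling moved the median of all gene names by over 0.1. With normexp background correction, 0 Sertoli cell genes, 0 of their probes, 0 hedgehog genes lower and 0 inhibin and activin genes higher were past 1.5 (as reported 1, 2, 1 and 1). Over the whole array, 168 gene names (0.68%) in place of 508 were called lower, and 4.15% were called higher. With the mean of all probes, 0 hedgehog genes were lower and 0 inhibin and activin genes higher, against 1.82% and 5.98% of all gene names. With the near spots taken off, chosen after the data were seen, 2 Sertoli cell genes were lower (AMH at -1.91 and DHH). In that setting 0 hedgehog genes were lower and 2 of the other Sertoli cell genes were higher, against 2.49% and 6.70% of all gene names.

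At a threshold of 1, the genes lower were 4 of the Sertoli cell set (6 probes), 1 of the other Sertoli cell genes, 1 inhibin and activin gene, 2 AMH signalling genes and 2 hedgehog genes, and those higher were 2 of the other Sertoli cell genes, 1 inhibin and activin gene and 2 hedgehog genes. At 1.5-fold, 5 of the set (10 probes), 5 of the other Sertoli cell genes, 3 inhibin and activin genes, 3 AMH signalling genes and 7 hedgehog genes were lower. Higher were 1 probe of the set, 2 of the other Sertoli cell genes, 1 inhibin and activin gene, 1 AMH signalling gene and 2 hedgehog genes. Of all gene names, 7.54% were lower and 12.3% higher at the threshold of 1, and 20.7% and 21.0% at 1.5-fold. The cause was not tested for normexp, the mean of probes or the near spots. By construction, the normexp offset makes differences of dim spots smaller in size, and thresholds change counts. Signal over background limits INHBB, the second probes of WT1 and GATA4, and PTCH1, SMO, CDON and GLI2.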
